A study of Mus musculus with 14 samples.

Results

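The mitochondrially encoded transcripts described here are those of 8 genes, mt-Nd1, mt-Nd2, mt-Nd4, mt-Nd5, mt-Nd6, mt-Cytb, mt-Co1 and mt-Atp8, taken by name from a table of 35271 genes. They belong to the 13 protein-coding genes of the mitochondrial chromosome, all of which are in the table. The other 5 are mt-Nd3, mt-Nd4l, mt-Co2, mt-Co3 and mt-Atp6. The samples were 14 single cells labelled as glomerular mesangial cells, the contractile and matrix-forming cells that hold the capillary loops of the kidney glomerulus together. They came from 1 wild-type male mouse aged 8 weeks, whose strain is given as C57BL/6 in the series description and as C56BL/6 in the sample labels. Glomeruli were enriched with magnetic beads, taken apart with enzymes and run on a Fluidigm C1 instrument, in which each cell is captured, lysed and turned into cDNA in its own chamber. The cells form 1 group with no treatment and are named GL_M_ with a number. Because they share 1 animal, means and SDs describe these cells only and no difference was tested.

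The mouse mitochondrial chromosome is a small circle that is transcribed from both strands as long precursors, from which ribosomal RNAs, transfer RNAs and messenger RNAs are cut. Its messenger RNAs all encode membrane subunits of the machinery of oxidative phosphorylation. The Nd genes encode subunits of complex I, which oxidises NADH, mt-Cytb the cytochrome b of complex III, the Co genes the catalytic core of complex IV, and the Atp genes parts of the ATP synthase, complex V. All remaining subunits are encoded in the nucleus. Copies of mitochondrial DNA have also been inserted into nuclear chromosomes in the course of evolution, and a read that matches such a copy as well as its own gene cannot be placed by sequence alone.

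The deposited unit is RPKM, in which a gene's reads are divided by its length and by the cell's read total, so levels of different genes are compared per length. The cells had read totals of 6.60 M to 23.8 M, recovered from the steps of the values, and transcripts of 1770 to 5277 genes at an RPKM of at least 1, called detected. Of 9 mesangial markers, 6 to 8 were at an RPKM of 10 or more in every cell, led by Gata3 at 2518 to 10706, while Tbx18 was listed at 0 in all 14. The 4 smooth muscle, 5 tubule and 4 leukocyte markers were below 10 in every cell. GL_M_30 also had 9 of 11 endothelial markers at 10 or more, with at most 4 in the cells other than GL_M_30 and GL_M_55, and GL_M_55 had 5 of 7 podocyte markers, with at most 2 in the same 12 cells. The part of these other transcripts in the results below was not tested. Without the 2 cells the median RPKM of mt-Nd5 was 363 and that of mt-Nd6 365, against 251 and 262 over all 14, the range of mt-Nd4 was 3.40-fold, against 4.20-fold, and the highest mt-Atp8 was 5404, against 5836.

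The 8 genes shared less sequence with annotated nuclear transcripts than the other 5. Of all windows of 50 bases, 98.0% of those of mt-Nd3, 98.8% of mt-Nd4l, 99.5% of mt-Atp6, 99.9% of mt-Co3 and 100% of mt-Co2 also occurred letter for letter in an annotated nuclear transcript. Among the 8 genes the share was 62.2% for mt-Nd4, 51.1% for mt-Co1, 8.19% for mt-Nd2 and 7.61% for mt-Nd5. It was 0 for mt-Nd1, mt-Nd6, mt-Cytb and mt-Atp8. With up to 2 mismatches per window the share reached 94.8% for mt-Co1, 51.1% for mt-Nd6, 37.7% for mt-Nd2, 32.2% for mt-Nd5 and 23.3% for mt-Cytb, and stayed at 62.2% for mt-Nd4 and at 0 for mt-Nd1 and mt-Atp8. The comparison was made with annotated transcripts, so copies that lie outside them were not seen and every share is a lower limit. For mt-Atp8 most of the nuclear interval that would pair with it lies outside them, so its 0 does not show that it is unshared.

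In all, 18 annotated nuclear genes held a copy of at least 100 bases at 90% identity or more, 11 of them of 6 of the 8 genes. A block of 7 pseudogenes on chromosome 1, within chr1:24611535-24616197 on the minus strand of GRCm38, was nearly identical to the mitochondrial chromosome. Gm28439 carries the first 876 bases of mt-Nd4 without a mismatch, and Gm29216 holds the last 479 bases of mt-Co1 without a mismatch. Between them lie Gm10222 (a copy of mt-Nd4l), Gm28438 (mt-Nd3), Gm28437 (mt-Co3), Gm10925 (mt-Atp6) and Gm28661 (mt-Co2), each with 0 mismatches except Gm28438 with 1. From mt-Co2 to mt-Nd3 the positions ran in register, and the interval that pairs with mt-Atp8 would be chr1:24614609-24614812. Its last 43 bases in the direction of mt-Atp8 lie in Gm10925 and matched without a mismatch, since mt-Atp8 and mt-Atp6 overlap there. No annotated transcript covers the rest of the interval, and its letters were not compared here.

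The remaining copies were less alike. Those on chromosome 2 were Gm13339 (mt-Nd2, 96.7% identity over 510 bases), Gm13340 (mt-Co1, 97.6% over 1545 bases) and Gm13341 (mt-Co2, 96.3% over 684 bases). Aligned bases are bases of the mitochondrial gene, joined over all gapless placements on a copy. For Gm13341, at chr2:22587291-22587962, they exceed the length of the copy, so its values are not those of 1 gapless alignment. Those on chromosome 4 were Gm11407 (mt-Nd5, 92.0% over 1029 bases), Gm11408 (mt-Nd6, 93.6% over 519 bases) and Gm11410 (mt-Cytb, 92.8% over 1143 bases). Single copies were Gm4076 on chromosome 13 (mt-Nd5, 94.9%), Gm11512 on chromosome 11 (mt-Co1, 90.9%), Gm43841 on chromosome 5 (mt-Cytb, 10 mismatches in 100 bases), Gm48122 on chromosome 12 (mt-Nd2, 10 mismatches in 100 bases) and AC124578.3 (mt-Atp6, 93.1%). No copy of this kind was found for mt-Nd1 or mt-Atp8. The RPKM of the 15 copies in the table was at most 16.6 in any cell, and their medians over cells ran from 0 to 1.55. How reads that match both a copy and its gene were handled is not given, so these values are uncertain as levels of the copies.

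The stretches below set 3 members beside a nuclear copy in 1 window each, as examples that need not stand for the whole copy. Over all aligned bases 37 of 1545 differed for mt-Co1 and Gm13340, 82 of 1143 for mt-Cytb and Gm11410, and 33 of 519 for mt-Nd6 and Gm11408. Each pair gives the same 90 bases of the gene and its copy from the middle of the copy, as annotated transcripts of GENCODE M21, with differing bases in capitals. For mt-Co1, at chrM:6055-6144 on the plus strand, and Gm13340, at chr2:22588831-22588920 on the minus strand, 0 of 90 bases differed. For mt-Cytb, at chrM:14671-14760 on the plus strand, and Gm11410, at chr4:80004515-80004604 on the plus strand, 6 differed. For mt-Nd6, at chrM:13767-13856 on the minus strand, and Gm11408, at chr4:80003611-80003700 on the minus strand, 10 differed.
mt-Co1: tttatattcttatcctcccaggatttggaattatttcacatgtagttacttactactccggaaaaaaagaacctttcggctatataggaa
Gm13340: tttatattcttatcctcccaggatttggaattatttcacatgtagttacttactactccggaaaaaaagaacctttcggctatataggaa
mt-Cytb: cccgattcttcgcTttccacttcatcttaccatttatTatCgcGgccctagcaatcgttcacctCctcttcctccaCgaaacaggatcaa
Gm11410: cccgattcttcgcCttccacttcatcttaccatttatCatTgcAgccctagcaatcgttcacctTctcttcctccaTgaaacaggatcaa
mt-Nd6: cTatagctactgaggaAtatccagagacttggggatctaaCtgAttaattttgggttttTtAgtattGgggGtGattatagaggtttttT
Gm11408: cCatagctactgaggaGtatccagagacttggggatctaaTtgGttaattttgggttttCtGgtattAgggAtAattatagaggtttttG

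In mt-Nd4 and mt-Co1 the chromosome 1 copy covers only a part of the gene. The sequence of mt-Nd4 is shown for chrM:10983-11102, where bases in lower case end the stretch held by Gm28439 and capitals lie past it. That of mt-Co1 is shown for chrM:6334-6453, where capitals precede the exact stretch shared with Gm29216, which starts at base 1067 of the gene.
mt-Nd4: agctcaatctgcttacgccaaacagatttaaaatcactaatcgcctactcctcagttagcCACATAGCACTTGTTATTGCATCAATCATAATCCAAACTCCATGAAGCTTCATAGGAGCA
mt-Co1: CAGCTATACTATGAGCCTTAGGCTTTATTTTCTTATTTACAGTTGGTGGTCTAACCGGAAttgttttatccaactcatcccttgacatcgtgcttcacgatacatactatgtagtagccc

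mt-Atp8 is shown whole, at chrM:7766-7969 on the plus strand, because it is short and ends inside mt-Atp6. The 43 bases in capitals belong to both genes.
mt-Atp8: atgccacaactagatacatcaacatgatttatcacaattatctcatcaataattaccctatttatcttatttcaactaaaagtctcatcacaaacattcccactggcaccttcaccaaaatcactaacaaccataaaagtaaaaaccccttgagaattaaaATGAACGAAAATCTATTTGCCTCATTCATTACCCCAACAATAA

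The levels of the 13 genes divided into the same 8 and 5. The 8 were chosen with earlier results of these data known, so this division may be partly built in. The medians over cells of the 8 genes were RPKM of 251 to 4144, and those of the other 5 were 0 to 27.8. Of the 112 values of the 8 genes 99 were at 100 or more, against 0 of the 70 values of the other 5. Neighbouring genes stood apart as well. In mammals mt-Atp8 and mt-Atp6 are carried on 1 messenger RNA, as are mt-Nd4l and mt-Nd4. Yet the RPKM of mt-Atp8 was 58.6 to 176 times that of mt-Atp6, with a median of 111, and mt-Nd4l had 1 read in GL_M_47 and 0 in the other 13 cells, while mt-Nd4 had 2979 to 23818 reads. The other 5 had RPKM of 1.99 to 75.4 (mt-Atp6), 0.375 to 31.3 (mt-Nd3), 0.469 to 3.70 (mt-Co3) and 0 to 1.29 (mt-Co2). The authors' treatment of reads that match several places, not given in the sources used here, was not tested for its part in these low values. The values of mt-Nd4 and mt-Co1, with more than 50% of their windows shared, are therefore uncertain as levels. Most of the nuclear interval that would pair with mt-Atp8 was not compared. Whether mt-Atp8 belongs with the less shared genes was thus not tested, and its value may be uncertain as well.

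**Figure D1:**
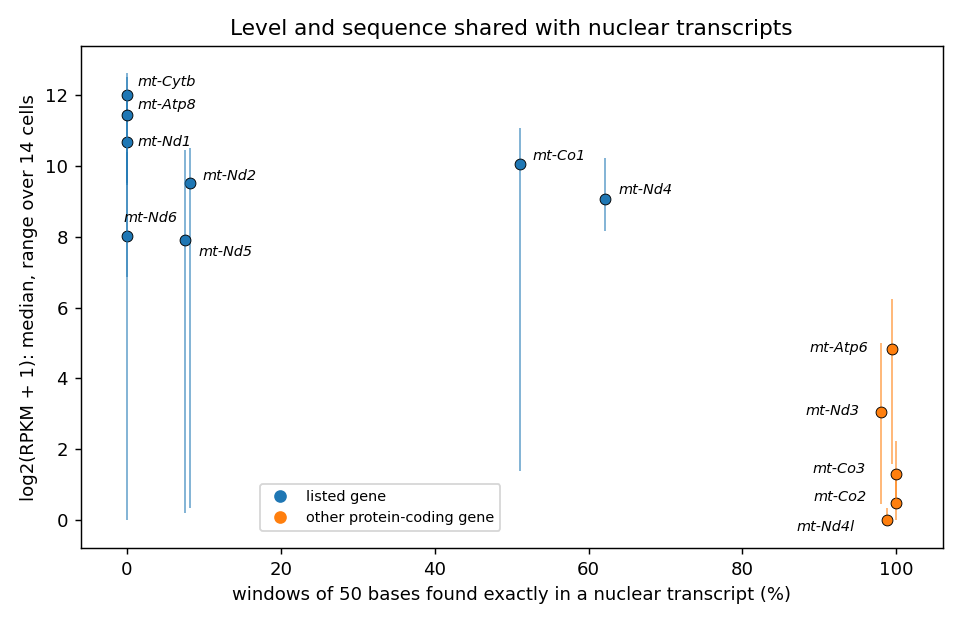
Level of the 13 protein-coding mitochondrial genes (log2(RPKM + 1), y axis) against the share of their windows of 50 bases found exactly in an annotated nuclear transcript (x axis). Points are medians and lines ranges over 14 cells. The 5 genes at 98.0% or more have medians of at most 27.8 RPKM, and the 8 listed genes, at 62.2% or less, have medians of 251 or more. Shares are lower limits, and most of the nuclear interval that would pair with mt-Atp8 was not compared. The 8 were chosen with earlier results of these data known.

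Each of the 8 genes was detected in some cell, against 29.2% of all 35271 genes in the table, and 5 of the 8 were detected in every cell, against 0.454% of all genes and 1.55% of the 10300 detected in some cell. These were mt-Nd1, mt-Nd4, mt-Cytb, mt-Co1 and mt-Atp8. All but mt-Co1 were at 100 or more in every cell, which held for 0.0964% of all genes. mt-Nd2 was detected in 13 cells, mt-Nd6 in 12 and mt-Nd5 in 11. GL_M_91 was below 1 for mt-Nd2, mt-Nd5 and mt-Nd6, GL_M_11 for mt-Nd5 and mt-Nd6, and GL_M_6 for mt-Nd5. In all 8 genes together the cells had 44688 to 260727 reads. Single values above 1 could still rest on few reads, such as 12 of mt-Nd6 in GL_M_30 and 44 of mt-Co1 in GL_M_91. The labels mention no molecular identifiers, so reads do not give the number of molecules captured. The part of losses in capture or amplification in the differences between cells was not tested.

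Among complex I transcripts, mt-Nd1 (ENSMUSG00000064341, chrM:2751-3707, plus strand) was the highest in the median, though not in every cell. It encodes a subunit near the site where complex I binds ubiquinone. Its RPKM was 734 in GL_M_11, the lowest cell, 1646 in the median and 3660 in GL_M_65, the highest, and the mean log2(RPKM + 1) was 10.64 ± 0.75 (SD, n = 14 cells of 1 mouse). The cells spanned a 4.99-fold range without a gap at the low end, where GL_M_51 followed at 783. GL_M_91, in which several other transcripts were nearly missing, had 1147.

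mt-Nd4 (ENSMUSG00000064363, chrM:10167-11544, plus strand), which encodes a subunit of the proton-pumping arm, had the lowest SD of the 8 over all 14 cells. Its RPKM was 285 in GL_M_55, 534 in the median and 1196 in GL_M_85, a 4.20-fold range, and its mean log2(RPKM + 1) was 9.12 ± 0.57 (SD, n = 14 cells of 1 mouse). GL_M_91 had 386, inside the range of the other cells. Without GL_M_91 the SD was 0.58 for both mt-Nd4 and mt-Atp8, and the range of mt-Atp8 was the narrower, at 2.87-fold. The cells highest in mt-Nd4 were not those highest in mt-Nd1. GL_M_85 and GL_M_51 had 1196 and 908 RPKM of mt-Nd4, and GL_M_55 and GL_M_65 had 285 and 496.

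mt-Nd2 (ENSMUSG00000064345, chrM:3914-4951, plus strand), another subunit of the pumping arm, was high in most cells and low in 3. Its RPKM was 0.272 in GL_M_91, 733 in the median and 1466 in GL_M_11. The low value of GL_M_91 was 5 reads among 17.7 M. GL_M_75 and GL_M_85 stood between it and the rest at 26.3 and 50.3, or 180 and 535 reads, and the other 11 cells were at 207 or more.

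mt-Nd5 (ENSMUSG00000064367, chrM:11742-13565, plus strand), the largest subunit encoded by this chromosome, split the cells more widely. Its RPKM was 0.136 in GL_M_6, 251 in the median and 1395 in GL_M_47. The 3 lowest cells, GL_M_6, GL_M_11 and GL_M_91, had 2, 3 and 10 reads. The next cell, GL_M_94, had 607 reads at an RPKM of 43.4, and the other 10 cells were at 126 or more.

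mt-Nd6 (ENSMUSG00000064368, chrM:13552-14070, minus strand) is the only messenger RNA read from the opposite strand. It was listed at 0 in GL_M_11, had a median RPKM of 262 and reached 1364 in GL_M_60. GL_M_91 had 4 reads and GL_M_30 12 reads, at 0.435 and 1.82, GL_M_94 was at 15.3 and GL_M_6 at 50.6, and the other 9 cells were at 195 or more. Its annotation overlaps that of mt-Nd5 by 14 bases, and the use of strand in counting was not given in the sources used here.

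mt-Nd5 and mt-Nd6, neighbours on opposite strands, were low together in GL_M_91, GL_M_11 and GL_M_94. In other cells they parted. GL_M_6 had 212 reads of mt-Nd6 but 2 of mt-Nd5, and GL_M_30 had 12 reads of mt-Nd6 but 4116 of mt-Nd5. On the log2(RPKM + 1) scale the difference of mt-Nd5 minus mt-Nd6 ran from -5.51 in GL_M_6 to 5.98 in GL_M_30, with mt-Nd5 the higher in 8 of 14 cells. Over the 14 cells, which share 1 mouse and the RPKM scaling, their levels had a Pearson's r of 0.78 and a Spearman's rho of 0.78, and an r of 0.71 without GL_M_91.

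**Figure D2:**
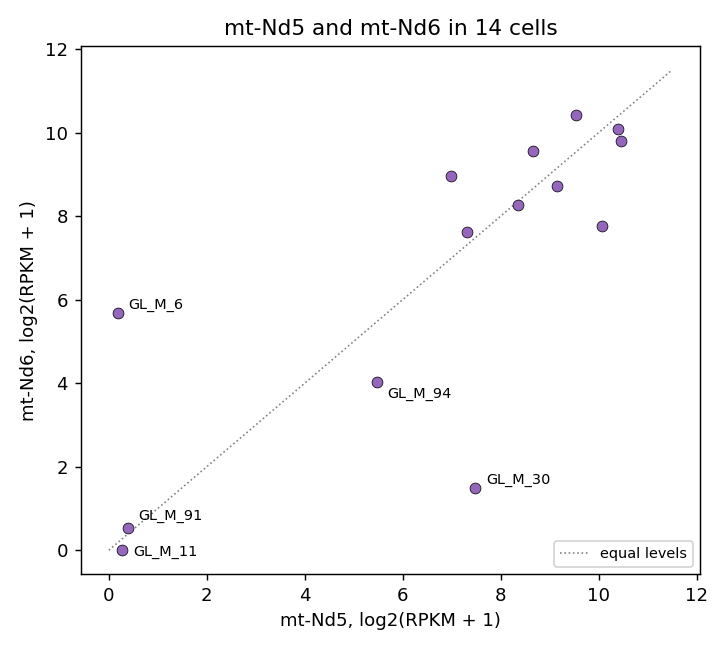
mt-Nd6 (y axis) against mt-Nd5 (x axis) in the 14 cells, both as log2(RPKM + 1), with a dotted line of equal levels and the 5 cells named in the text labelled. GL_M_11 and GL_M_91 lie near 0 on both axes, GL_M_6 is near 0 for mt-Nd5 alone, and GL_M_30 is low for mt-Nd6 alone at an RPKM of 1.82.

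mt-Cytb (ENSMUSG00000064370, chrM:14145-15288, plus strand), the cytochrome b of complex III, was the highest of the 8 in the median. Its RPKM was 713 in GL_M_85, 4144 in the median and 6327 in GL_M_6, with a mean log2(RPKM + 1) of 11.70 ± 1.01 (SD, n = 14 cells of 1 mouse). GL_M_85 and GL_M_91, at 713 and 754, were well below GL_M_75 at 2218 and the other 11 cells at 3075 or more. Of the RPKM of the 8 genes, mt-Cytb took 10.2% in GL_M_85 and 50.4% in GL_M_11.

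mt-Co1 (ENSMUSG00000064351, chrM:5328-6872, plus strand), the catalytic subunit of complex IV, was between 598 and 2146 RPKM in 12 cells and lower in the other 2. Its RPKM was 1.61 in GL_M_91, 1071 in the median and 2146 in GL_M_6. GL_M_91 had 44 reads of it. GL_M_55, which also carried the podocyte markers, had 155 RPKM, and the remaining 12 cells were at 598 or more. The mean log2(RPKM + 1) was 9.33 ± 2.47 over 14 cells, 9.95 ± 0.96 without GL_M_91 and 10.17 ± 0.59 without GL_M_30, GL_M_55 and GL_M_91 (SD, n = 11 cells of 1 mouse).

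mt-Atp8 (ENSMUSG00000064356), a small subunit of the membrane part of the ATP synthase, was at 116 in GL_M_91, 2817 in the median and 5836 in GL_M_55. Apart from GL_M_91, the 13 cells lay between 2034 and 5836, a 2.87-fold range. Its gene is 204 bases long, so its 421 to 14281 reads give a high RPKM, and with a gene this short the RPKM depends on how reads at its ends were assigned.

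**Figure D3:**
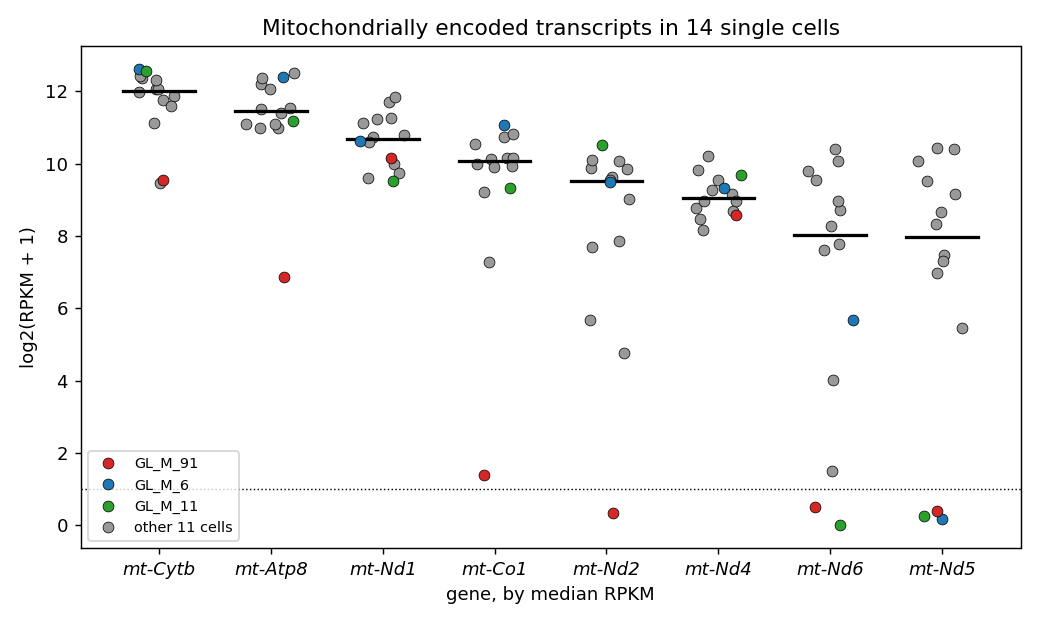
Level of each of the 8 transcripts (log2(RPKM + 1), y axis) in the 14 cells, with genes ordered by median. Each point is a cell, bars are medians, and the dotted line is an RPKM of 1. mt-Cytb, mt-Atp8, mt-Nd1 and mt-Nd4 stay at 116 RPKM or more in all cells, while GL_M_91 (red), GL_M_6 (blue) and GL_M_11 (green) lie below 1 for some of mt-Nd2, mt-Nd6 and mt-Nd5.

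By median the order was mt-Cytb, mt-Atp8, mt-Nd1, mt-Co1, mt-Nd2, mt-Nd4, mt-Nd6 and mt-Nd5. Neighbours in this order were not cleanly separated. mt-Cytb was above mt-Atp8 in 10 of 14 cells, mt-Atp8 above mt-Nd1 in 11, mt-Nd1 above mt-Co1 in 10 and mt-Co1 above mt-Nd2 in 11. mt-Nd2 was above mt-Nd4 in 8, mt-Nd4 above mt-Nd6 in 9 and mt-Nd6 above mt-Nd5 in 6. The highest transcript of a cell was mt-Cytb in 9 cells, mt-Atp8 in 4 and mt-Nd1 in GL_M_91. Some pairs farther apart in the order separated in every cell and others did not. mt-Cytb and mt-Atp8 were each above mt-Co1, mt-Nd2, mt-Nd5 and mt-Nd6 in all 14 cells, and mt-Nd1 was above mt-Nd6 in all 14. mt-Cytb and mt-Atp8 were each above mt-Nd4 in 13, mt-Nd1 was above mt-Nd2 and mt-Nd5 in 13 each, and mt-Co1 was above mt-Nd5 and mt-Nd6 in 11 each. The order changes if all reads of a gene are taken to come from its windows without an exact copy in an annotated nuclear transcript. The median RPKM of mt-Co1 would then be 2191 and that of mt-Nd4 1414, which places mt-Co1 above mt-Nd1 and mt-Nd4 above mt-Nd2. That of mt-Nd5 would be 271, above mt-Nd6 at 262.

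**Figure D4:**
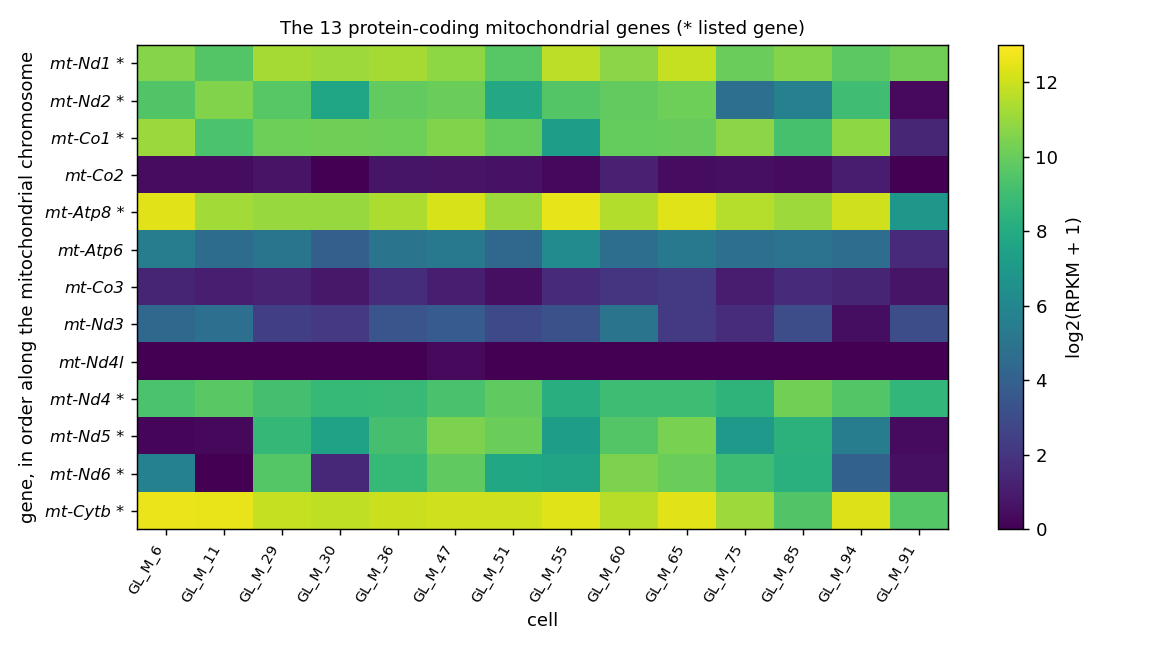
Levels (colour, log2(RPKM + 1)) of the 13 protein-coding genes, in the order in which they lie on the mitochondrial chromosome (rows), in the 14 cells (columns). Starred rows are the 8 transcripts described. The 5 unstarred rows stay at 75.4 RPKM or less, and in the column of GL_M_91 only mt-Nd1, mt-Atp8, mt-Nd4 and mt-Cytb exceed an RPKM of 100.

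The 8 transcripts did not rise and fall as a block. Of their 28 pairs, 8 had a Pearson's r of at least 0.5 over the 14 cells, and 2 without GL_M_91, namely mt-Nd2 with mt-Cytb (0.75) and mt-Nd5 with mt-Nd6 (0.71). The median r was 0.33 with GL_M_91 and -0.07 without it. mt-Co1 with mt-Atp8 went to -0.07 without that cell, against 0.84 with it. mt-Nd1 with mt-Nd4 was at -0.49 over all cells. These values describe 14 cells of 1 mouse that share the RPKM scaling. The difference of a pair within a cell, which does not depend on that scaling except at the lowest values, had a median SD of 2.62 on the log2(RPKM + 1) scale over the 28 pairs. It was narrowest for mt-Cytb minus mt-Atp8, at 0.40 ± 0.98 (SD, n = 14 cells of 1 mouse).

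The median SD of log2(RPKM + 1) over cells was 1.93 for the 8, against 3.10 for the 182 nuclear genes whose mean RPKM reached that of the lowest of the 8, and 1.74 for the 154 nuclear genes detected in every cell. The middle 50% of SDs ran from 0.94 to 3.04 for the 8 and from 1.90 to 3.80 for the 182, so the ranges overlapped. For the 8 the median was 0.90 without GL_M_91. The quiet members were mt-Nd4, mt-Nd1 and mt-Cytb, with SDs of 0.57, 0.75 and 1.01, and the wide ones were mt-Nd5, mt-Nd6 and mt-Nd2, with 3.78, 3.67 and 2.83. Without GL_M_91 the SD of mt-Nd2 was 1.79, that of mt-Co1 0.96 and that of mt-Atp8 0.58, while those of mt-Nd5 and mt-Nd6 were 3.44 and 3.35.

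Together the 8 transcripts took 2.11% ± 0.777 of a cell's RPKM total (SD, n = 14 cells of 1 mouse), from 0.408% in GL_M_91 to 3.30% in GL_M_65. The other 13 cells lay between 1.17% and 3.30%. As a share of reads the mean was 1.10% ± 0.375, with 0.252% in GL_M_91 and 1.73% in GL_M_65. GL_M_91 was sequenced to 17.7 M reads, had 1810 detected genes and carried 7 of the 9 mesangial markers at 10 or more. What remained of the 8 in that cell was 19473 reads of mt-Nd1, 15307 of mt-Cytb, 9424 of mt-Nd4, 421 of mt-Atp8 and 44 of mt-Co1, with 5, 10 and 4 of mt-Nd2, mt-Nd5 and mt-Nd6. Read total and share had a Pearson's r of -0.40 and a Spearman's rho of -0.39 over the 14 cells, and an r of -0.55 without GL_M_60 and GL_M_51, the cells farthest from the median total. For the number of detected genes r was 0.33 and rho 0.29.

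Of 77 nuclear genes for subunits of complexes I to V, 33 to 69 were detected in a cell. Of these 77, 1, Ndufa7 of complex I, was detected in all 14 cells, near the 1.55% of all genes detected in some cell, while 5 of the 8 mitochondrially encoded genes were. In the median cell 60.4% of the 77 were detected, against 27.6% of the 10279 nuclear genes detected in some cell. Their median SD over cells was 3.41. Counted by complex, the median cell had 20 of 36 complex I genes, 1.5 of 4 of complex II, 5 of 9 of complex III, 8.5 of 11 of complex IV and 12 of 17 of complex V. Complex II, succinate dehydrogenase, has no mitochondrially encoded subunit.

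Among complex I genes, Ndufa7 had an RPKM of 18.6 to 1760 with a median of 285, and Ndufa3 and Ndufa6 had medians of 237 and 157 but were listed at 0 in 1 and 3 cells. Of complex III, whose cytochrome b is mt-Cytb, Uqcrh, Uqcr11 and Uqcrb had medians of 257, 206 and 161. Of complex IV, Cox6a1, Cox4i1 and Cox6b1 had medians of 1008, 651 and 352, beside 1071 for mt-Co1. Of complex V, Atp5c1, a central stalk subunit of the ATP synthase, had a median of 579, Atp5h of 235 and Atp5e of 160. Sdha, Sdhc and Sdhb of complex II had medians of 4.32, 0.834 and 0.408, though Sdha reached 1059 in GL_M_65.

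Summed, the RPKM of the 8 mitochondrially encoded transcripts was 0.849 times that of the 77 nuclear subunits in the median cell. This sum leaves out the other 5 mitochondrial genes and includes mt-Nd4 and mt-Co1, whose values are uncertain as levels. It therefore does not measure the whole output of the mitochondrial chromosome. The ratio was 3.79 in GL_M_55 and 0.138 in GL_M_91. In GL_M_91 the nuclear subunits took 2.96% of the RPKM, within 1 SD of their mean of 2.52% ± 0.795 (SD, n = 14 cells of 1 mouse). Of the 77, 42 were detected there, below the median of 46.5, and it had the highest Cox6a1 (2305) and Uqcr11 (950) of the 14 cells. In GL_M_55 the nuclear subunits took 0.793%, with 40 of 77 detected, beside 3.01% for the 8.

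**Figure D5:**
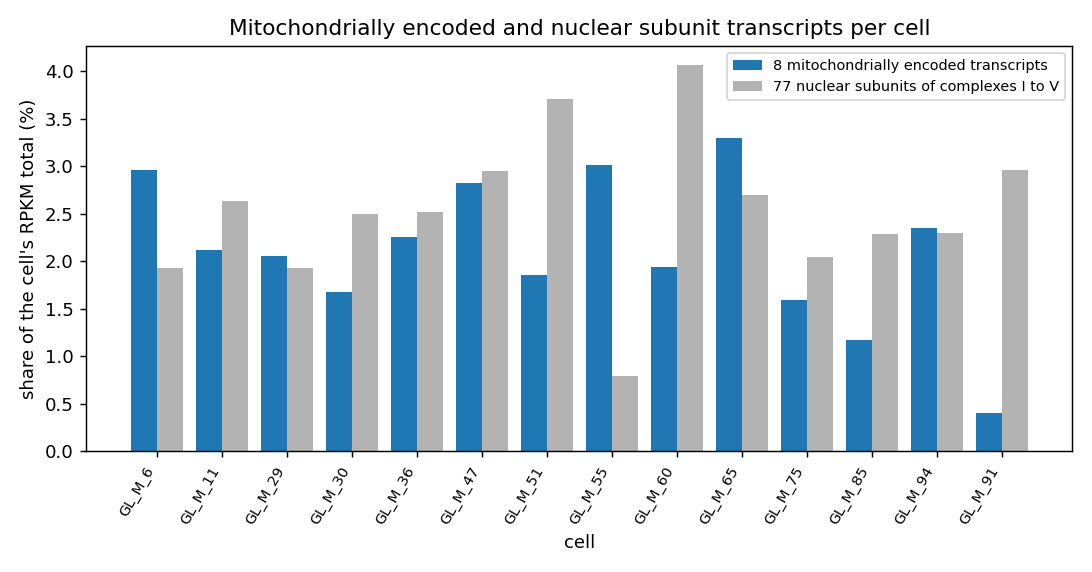
Share of each cell's RPKM total (y axis, %) taken by the 8 mitochondrially encoded transcripts (blue) and by 77 nuclear subunits of complexes I to V (grey). GL_M_91 has 0.408% in blue beside 2.96% in grey, and GL_M_55 has 3.01% beside 0.793%.

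Of 26 genes for proteins that copy and handle mitochondrial DNA and RNA, 17 were detected in some cell, where 29.2% of all genes were, and 0 in all 14, where 1.55% of genes detected in some cell were. The counts per cell ran from 0 of 26 in GL_M_91 to 13 in GL_M_36, with a median of 4.5. The highest by median were Slirp, an RNA-binding protein that partners Lrpprc in stabilising mitochondrial messenger RNAs, at 4.56, Mterf3, of the mitochondrial transcription termination factor family, at 3.63, and Lrpprc at 0.399. Of 77 genes for mitochondrial ribosomal proteins 71 were detected in some cell and 0 in all 14, against the same 29.2% and 1.55%, with 10 in GL_M_60 and 45 in GL_M_36. With so few genes detected in all cells, neither 0 sets these lists apart. Mrpl48, Mrpl27 and Mrps14 led with medians of 25.4, 13.3 and 7.11. GL_M_36 also had the most detected genes, 5277, and GL_M_60 the fewest, 1770.

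Among the 154 nuclear genes detected in all cells, the levels most like the mean log2 level of the 8 transcripts over the 14 cells were those of Myl9, a myosin regulatory light chain, with a Pearson's r of 0.87. Cbx3, a heterochromatin protein (0.80), the nuclear receptor Nr2f2 (0.78), the interferon-induced Ifitm2 (0.74) and annexin A1, Anxa1 (0.72) followed. All 5 were at their lowest in GL_M_91. Without that cell r was 0.59 for Myl9, 0.09 for Cbx3, 0.17 for Nr2f2, -0.23 for Ifitm2 and 0.04 for Anxa1. The lowest r belonged to Nrp1, a coreceptor for semaphorins and VEGF, at -0.51 and -0.46 without GL_M_91. After it came Gpc3 (-0.48), Smim10l1 (-0.43), Ccn2 (-0.38) and Rbm25 (-0.38), which were at -0.01, -0.26, -0.24 and -0.06 without GL_M_91. The 154 genes share the cells, the mouse and the RPKM scaling with the 8.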

How the data were processed

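The deposited values are RPKM, made by the authors, for 35271 Ensembl genes in 14 cells. Per the submitters' processing notes the tools were TopHat2 2.0.12 and HTSeq 0.6.1 and the build mm10. Not given in the sources used here are the annotation release, read length, strand setting, any filter on cells and the handling of reads with several matches. Symbols, coordinates and transcript sequences came from GENCODE M21, whose assembly GRCm38 is the same as mm10, and 34488 genes matched. The deposited values hold no ribosomal or transfer RNA genes of the mitochondrial chromosome, so none could be used here.

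Read totals were the largest numbers at which the RPKM of many of 14953 single-transcript genes equal 1 read. With them 84.7% to 89.7% of such values below 50 reads per cell, and all 182 values of the 13 mitochondrial genes, came within 0.02 reads of a whole number. A floor of 3 reads on 1 kb equals an RPKM of 0.126 to 0.455 and covers counting error only, since the labels mention no molecular identifiers. Levels are log2(RPKM + 1). Each mitochondrial gene was laid without gaps on annotated nuclear transcripts, on either strand, from exact seeds of 16 bases, and windows of 50 bases were called shared where every base matched. Whole nuclear chromosomes, for which this step was planned, were not used here. The recovery of read totals and the search for like genes were tested on simulated data, and the sequence comparison was not. Python 3.11.15, NumPy 2.4.6, pandas 2.3.3 and SciPy 1.17.1 were used.

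The genes, the nuclear lists and the alternatives were chosen with earlier results of these data known. Named nuclear genes are the copies, the 3 genes with the highest median of each list, and the 5 with the highest and the 5 with the lowest r among genes detected in every cell. No p-value was computed, because 1 mouse gives no replicate.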

Additional observations from a re-analysis of the deposited data

How the results depend on the processing

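A pseudocount of 0.1, scaling to the nuclear total, or leaving out GL_M_30 and GL_M_55 moved no mean level of a member by as much as its SD over cells, and no SD of a member by more than 1.5 times. The mean level over the 7 members above 0 in every cell was 9.58, and 9.48 to 9.90 with 1 cell left out. The median SD was 1.93, and 0.90 to 2.01 with 1 cell left out, lowest without GL_M_91. The share of RPKM held by the 8 was 2.11%, and 1.10% as a share of reads, since RPKM divides by gene length. The 13 protein-coding genes are the only genes of the mitochondrial chromosome with deposited values, and their share of RPKM was 2.12%. Members that share any window with a nuclear transcript numbered 4 at 50 bases, 7 at 36 bases, 4 at 75 and 3 at 100. Divided over unshared windows, 2 of 8 members kept their place in the order. With the RPKM as deposited and 1 cell left out, 6 to 8 did. Nuclear subunits above 0 numbered 66 in the median cell, against 46.5 at an RPKM of at least 1. Of the 5 genes most like the members, 1 was among the top 5 by Spearman's rho, and 1 to 5 with 1 cell left out, fewest without GL_M_91. The cause was not tested where none is named. Members detected in every cell numbered 4 to 7 at other limits, and 5 or 6 with 1 cell left out. Leaving out the 2 cells for the last count, the order and the like genes was chosen after seeing the data. No paired analysis was possible because the cells form 1 group. Values below 1 rest on at most 10 reads.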

Other observations

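The RPKM listed for nuclear copies of mitochondrial genes was near 0 in most cells but not in all. Reads that match a copy and its gene alike cannot be placed by sequence, and their handling is not given. The values are therefore uncertain as levels of the copies. Gm28437, the chromosome 1 copy of mt-Co3, was at an RPKM of 16.6 in GL_M_30 and 15.9 in GL_M_75, and between 0.268 and 1.78 in the other 12 cells. In the same 2 cells mt-Co3 was listed at 0.801 and 0.967. The copy matches mt-Co3 over 783 bases with 0 mismatches, so how its reads were told from those of mt-Co3 is not known. Gm11410, the chromosome 4 copy of mt-Cytb, was at 15.0 in GL_M_65 and at most 1.31 elsewhere. On chromosome 2, Gm13340 and Gm13341, copies of mt-Co1 and mt-Co2, were at 11.8 and 8.50 in GL_M_60, against at most 2.01 and 2.93 in the other cells. These copies were singled out after their values were seen.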
